A study of Rattus norvegicus with 3 samples.

Results

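The genes described here are 10 immediate early genes: Egr1, Egr2 and Egr3 of the early growth response family, Nr4a1, Nr4a2 and Nr4a3 of the NR4A nuclear receptors, Ier2, Ier3 and Ier5 of the immediate early response genes, and Dusp1. They were taken by gene symbol out of 15037 named genes, and all 10 had 1 probe set each. FRSK is a rat keratinocyte line from fetal skin, and 3 cultures of it were compared on whole-transcript arrays, with 1 array per culture. The first culture received Met-enkephalin (Met-ENK) and the second β-END(1-9), a fragment of β-endorphin, each at 100 nM for 24 h, and the third, the control, was left unstimulated. All 3 cultures were of the same line and were grown in medium with 10% serum, and the labels do not say whether the control was given vehicle. With 1 array per group no spread between cultures can be estimated, so each difference below is that of 1 array from 1 other, unreplicated, with no test and no p-value.

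Immediate early genes are switched on within minutes of a growth factor, serum or stress signal, without new protein synthesis, and their transcripts are usually short-lived. Egr proteins are zinc finger transcription factors, NR4A proteins are nuclear receptors that act without a known natural hormone, and Dusp1 is a phosphatase that switches off MAP kinases and so ends the signal that induced it. In epidermis these genes are known for their response to wounding, growth factors and ultraviolet light. The comparison asks which of them differed a day after each opioid peptide. Earlier times are not analysed here.

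Induction of immediate early genes is known to run, among other routes, through 2 kinds of promoter element. Serum response factor (Srf) binds the CArG box together with ETS-domain partners, and Creb1 binds the cAMP response element (CRE), whose full form is TGACGTCA and whose short form is TGACG. RefSeq promoter windows of assembly GRCr8, from 250 bases before to 50 bases after the annotated start, were found for 7 of the 10 genes: Egr1, Egr2, Nr4a1, Nr4a2, Ier2, Ier5 and Dusp1. The windows of Egr3, Nr4a3 and Ier3 were not used here. The 5 windows below are shown because they carry the CArG boxes, the full CREs or, in Nr4a1, the largest number of short CREs among the 7. Capitals mark CArG boxes and full and short CREs on either strand and, in Nr4a1, also 1 match to the Egr motif GCGNGGGCG. They lie at chr18:26736828-26737127 (plus strand) for Egr1, chr20:21054392-21054691 (minus strand) for Egr2, chr7:134259888-134260187 (plus strand) for Nr4a1, chr19:40399123-40399422 (plus strand) for Ier2 and chr10:17184603-17184902 (plus strand) for Dusp1.
Egr1: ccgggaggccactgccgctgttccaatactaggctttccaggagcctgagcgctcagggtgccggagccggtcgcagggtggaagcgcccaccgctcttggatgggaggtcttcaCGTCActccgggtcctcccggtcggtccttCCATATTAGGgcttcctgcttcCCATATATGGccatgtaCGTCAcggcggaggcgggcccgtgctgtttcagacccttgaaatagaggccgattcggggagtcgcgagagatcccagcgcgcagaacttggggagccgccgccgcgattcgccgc
Egr2: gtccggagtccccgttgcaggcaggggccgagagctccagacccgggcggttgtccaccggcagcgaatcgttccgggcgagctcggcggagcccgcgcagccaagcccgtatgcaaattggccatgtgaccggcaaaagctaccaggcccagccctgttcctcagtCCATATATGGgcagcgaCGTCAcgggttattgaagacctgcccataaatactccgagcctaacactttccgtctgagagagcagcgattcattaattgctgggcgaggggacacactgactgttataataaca
Nr4a1: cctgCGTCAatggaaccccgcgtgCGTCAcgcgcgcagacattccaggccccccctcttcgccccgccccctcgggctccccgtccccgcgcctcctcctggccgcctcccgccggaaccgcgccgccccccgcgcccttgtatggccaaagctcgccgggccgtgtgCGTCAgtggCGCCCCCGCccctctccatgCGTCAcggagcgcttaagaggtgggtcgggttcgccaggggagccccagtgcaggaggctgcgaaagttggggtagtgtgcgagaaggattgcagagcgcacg
Ier2: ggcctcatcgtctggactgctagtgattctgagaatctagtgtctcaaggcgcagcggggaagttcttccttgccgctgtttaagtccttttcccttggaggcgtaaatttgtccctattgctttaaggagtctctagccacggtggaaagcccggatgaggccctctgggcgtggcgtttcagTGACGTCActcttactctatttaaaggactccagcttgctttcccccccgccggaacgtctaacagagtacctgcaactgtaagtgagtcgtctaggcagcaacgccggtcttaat
Dusp1: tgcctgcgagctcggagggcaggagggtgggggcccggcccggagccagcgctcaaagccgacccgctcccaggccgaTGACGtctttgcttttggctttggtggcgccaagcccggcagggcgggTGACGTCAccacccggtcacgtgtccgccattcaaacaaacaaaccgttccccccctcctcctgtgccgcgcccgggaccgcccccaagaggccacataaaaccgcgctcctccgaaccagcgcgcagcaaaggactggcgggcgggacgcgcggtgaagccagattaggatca

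The Egr1 window held 2 CArG boxes, which began 105 and 83 bases before the start, and 2 short CREs. The Egr2 window held 1 CArG box with the same 10 letters as the nearer box of Egr1, and it also began 83 bases before the start. In both genes a short CRE on the minus strand covered bases -66 to -62. A CArG box occurred in 1.64% of 33469 promoter windows of this length, and an ETS core, GGAA on either strand, lay within 10 bases of such a box in 0.556% of them, those of Egr1 and Egr2 included. The full CRE was present in the windows of Ier2 and Dusp1, 2 of 7, against 1.83% of all windows. Each full CRE contains 2 overlapping short ones, 1 on each strand. Short CREs were found in 6 of the 7 windows, all but that of Ier5, and in 21.2% of all windows. Nr4a1 had 4 of them. The Egr motif was found in Nr4a1 and in 4.98% of all windows, the TATA box TATAAA in Ier5 and in 14.2%, and the NR4A motif AAAGGTCA in 0 of 7 and in 1.43%. Among the 12924 windows of genes named on the array, the shares were higher for the full CRE (2.55%), the short CRE (26.4%) and the Egr motif (7.71%). They were lower for the CArG box (1.31%), the TATA box (11.6%) and the NR4A motif (1.15%). A match describes the letters and does not show that a factor was bound.

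**Figure D1:**
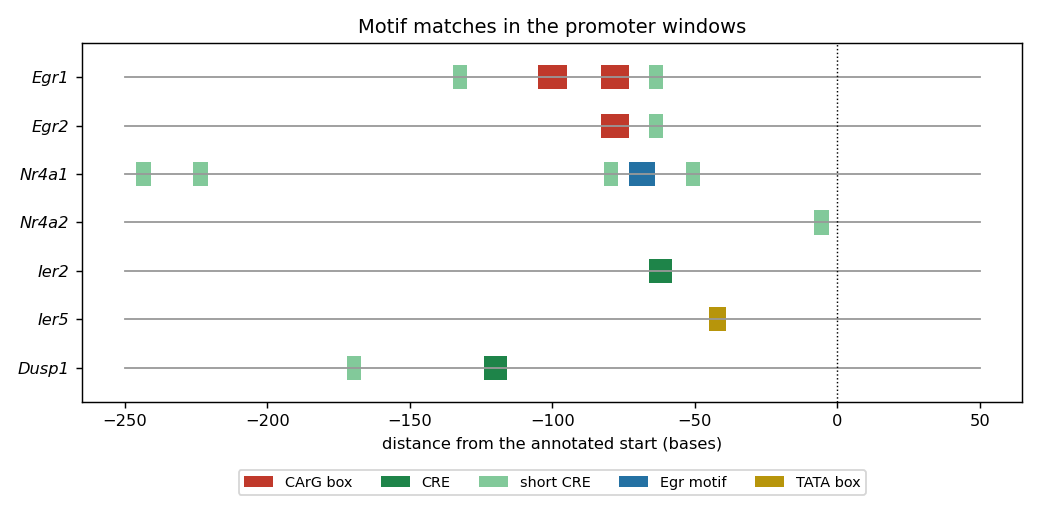
Motif matches in the 7 promoter windows, by distance in bases from the annotated start. Each grey line is 1 window of 300 bases, and the CArG boxes of Egr1 and Egr2 share the position 83 bases before the start. Short CREs inside a full CRE are covered by it.

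Across the 3 arrays, 4 of the 10 genes (Egr1, Ier2, Ier3 and Ier5) had signals above the range of the array's background probe sets, which carry no gene and whose log2 signals ran between 2.51 and 7.57. The remaining 6 lay inside that range on all 3 arrays, and for these a signal does not show whether the transcript was present. The 23 background sets are ordered by the GC content class in their names. The 11 sets of classes 8 to 18 ran between 2.51 and 4.51 and the other 12 between 6.19 and 7.57, so the background of a given gene depends on its probes. Signals of different genes come from different probes and are not compared with each other here. In RNA from whole cultures, fewer expressing cells and less RNA per cell cannot be told apart.

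Egr1 had log2 signals of 13.80 with Met-ENK, 13.79 with β-END(1-9) and 13.80 in control. The 3 arrays thus gave nearly the same value, 6.24 log2 units above the highest background set in control. The differences from control were -0.0003 with Met-ENK and -0.015 with β-END(1-9). Egr1 is the best studied of the Egr factors and a classical serum-response gene.

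Egr2, a relative of Egr1 known for its part in hindbrain and myelin development, had signals of 5.74 with Met-ENK, 6.29 with β-END(1-9) and 5.76 in control. The β-END(1-9) array was the high one, by 0.53 over control (1.44-fold), and the Met-ENK array stood 0.55 below it. Among named genes that did not pass the level filter described below, 8.39% differed from control by at least this much on the β-END(1-9) array. Egr3 had exactly the same signal, 3.47, on all 3 arrays. Such exact equality is common in the deposited values, and 2333 of 15037 named genes had 1 value on all 3 arrays. Except for GC class 25, the background sets likewise read the same on all 3 arrays. The step that made such values equal is not known, so an exact equality is not read here as a measured lack of difference.

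The NR4A receptors lay inside the background range throughout. Nr4a2, also known as Nurr1 and required in dopamine neurons, had 7.31 with Met-ENK, 6.93 with β-END(1-9) and 6.93 in control. The Met-ENK array was the high one, by 0.39 over both others (1.31-fold), and the β-END(1-9) and control signals were exactly equal. Of the genes that passed the level filter, 16.2% differed from control by at least as much on the Met-ENK array. Nr4a1, also known as Nur77, had 5.05 with Met-ENK, 5.04 with β-END(1-9) and 5.05 in control. Nr4a3 had 3.98 with Met-ENK, 3.87 with β-END(1-9) and 3.98 in control. For both of these the Met-ENK and control signals were exactly equal.

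Ier3, also known as IEX-1 and tied to cell survival and ERK signalling, had signals of 13.75 with Met-ENK, 13.92 with β-END(1-9) and 13.97 in control. The Met-ENK array was the low one, by -0.23 against control (0.855-fold), and the β-END(1-9) array differed by -0.058. Differences at least as large as that of the Met-ENK array were found in 31.9% of the genes that passed the filter. Ier5, which in human cells is known to act with the phosphatase PP2A on the heat shock factor HSF1, had 8.64 with Met-ENK, 8.45 with β-END(1-9) and 8.47 in control. Here the Met-ENK array was the high one, at 0.17 over control, and 40.1% of genes that passed the filter differed at least as much. Ier2, a nuclear protein, had 8.40 with Met-ENK, 8.45 with β-END(1-9) and 8.45 in control.

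Dusp1, also known as MKP-1, acts on the kinases p38, JNK and ERK. Its signals were 6.81 with Met-ENK, 6.68 with β-END(1-9) and 6.68 in control, all inside the background range. The Met-ENK array was higher than both others by 0.13, and the β-END(1-9) and control signals were exactly equal.

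**Figure D2:**
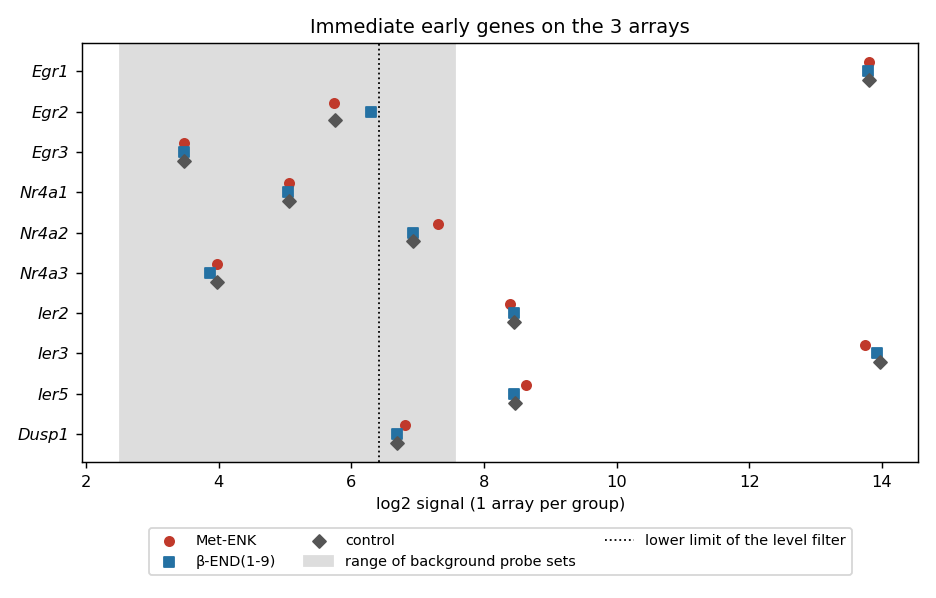
Deposited log2 signal of each of the 10 genes with Met-ENK, with β-END(1-9) and in control, 1 array each. The grey band spans the background probe sets (2.51 to 7.57) and the dotted line the lower limit of the level filter (6.41). Egr1, Ier2, Ier3 and Ier5 lie above the band, and the 3 symbols of a gene lie close together except for Egr2 and Nr4a2.

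For counts, the level filter kept the 7519 named genes whose 3-array mean reached the median of all named genes, 6.41 on the log2 scale. Past 1.5-fold means a difference of at least 0.58 on that scale. The filter was passed by 6 of the 10 genes: Egr1, Nr4a2, Ier2, Ier3, Ier5 and Dusp1.

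In Met-ENK against control, 0 of the 6 genes were past 1.5-fold, where 6.72% of all genes that passed the filter were. Of all 10 genes, 3 were higher (Nr4a2, Ier5 and Dusp1), 4 were lower and 3 were exactly equal, against 26.9% of all named genes exactly equal. The median difference was 0.063 over the 6 genes that passed and 0 over all 7519. Over the 4 genes above the background range it was -0.029, so its sign depends on Nr4a2 and Dusp1, which lay inside that range. Without the filter, 0 of 10 genes and 7.19% of named genes were past 1.5-fold. At a lower limit of 1.3-fold (0.38 on the log2 scale), Nr4a2 alone of the 6 was counted, against 16.5% of the 7519 genes, and it fell short of that limit after median centring (0.36). Nr4a2, Ier5 and Dusp1 stayed higher and Ier3 stayed lower than control under each of the 4 other scalings tried, at 0.36 to 0.43 for Nr4a2, 0.15 to 0.31 for Ier5, 0.10 to 0.26 for Dusp1 and -0.25 to -0.10 for Ier3. Of 6 genes, 6.72% is less than 1 gene, so a count of 0 is near the background and is not a result about these genes.

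In β-END(1-9) against control, 0 of the 6 genes were past 1.5-fold, against 2.83% of genes that passed the filter. As deposited, 4 of the 6 were lower, with Ier3 the farthest at -0.058, and Nr4a2 and Dusp1 were exactly equal. Quantile normalization put Egr1 (0.089), Ier2 (0.094), Ier3 (0.050) and Ier5 (0.081) slightly above control. Cyclic loess did so too (0.059, 0.047, 0.016 and 0.034 in that order). The median was -0.0086 over the 6 genes and -0.030 over all 7519. Over the 6 genes it was -0.047 after median centring, 0.066 after quantile normalization, 0.026 after cyclic loess and 0.048 with the span trend removed. Without the filter, 0 of 10 genes and 4.61% of named genes were past 1.5-fold, with Egr2 the nearest to the limit. At 1.3-fold, 0 of the 6 genes were counted against 10.2% of the 7519.

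Between the peptides, given at the same dose and time, 0 of the 6 genes were past 1.5-fold on the Met-ENK array relative to the β-END(1-9) array, against 4.59% of genes that passed. The median difference was 0.071 over the 6 genes and 0 over the 7519, and it was -0.020 over the 4 genes above the background range. Nr4a2 (0.39), Ier5 (0.19), Dusp1 (0.13) and Egr1 (0.014) were higher with Met-ENK, and Ier3 (-0.17) and Ier2 (-0.055) were lower, where Egr1 (down to -0.048) and Ier2 (up to 0.039) changed sign under another scaling. Without the filter, 0 of 10 genes and 5.56% of named genes were past 1.5-fold, and Egr2, at -0.55, came nearest. At 1.3-fold, 1 of the 6 genes (Nr4a2) was counted against 16.0% of the 7519, and it fell short with the span trend removed (0.37). No interval can be given for these differences, so they do not show that the peptides act alike on these genes. The comparisons of the peptides with control use the same control array and are not independent of each other.

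**Figure D3:**
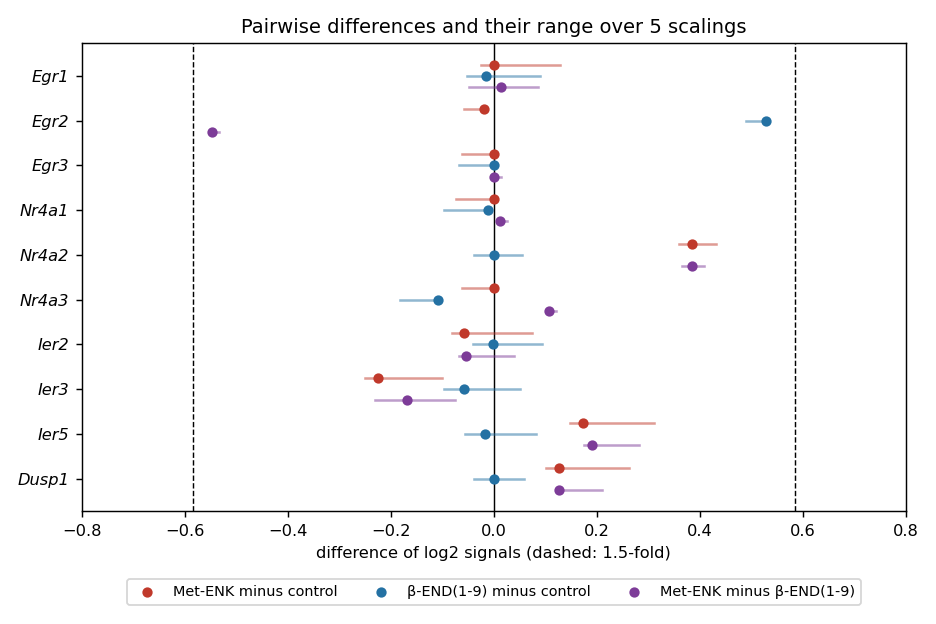
Difference of log2 signals for the 10 genes in the 3 comparisons. Points are the deposited values and lines their range over 5 scalings, the deposited one included (the others are median centring, quantile normalization, cyclic loess and removal of the trend along genomic span). Every point and line lies inside the dashed limits of 1.5-fold.

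**Figure D4:**
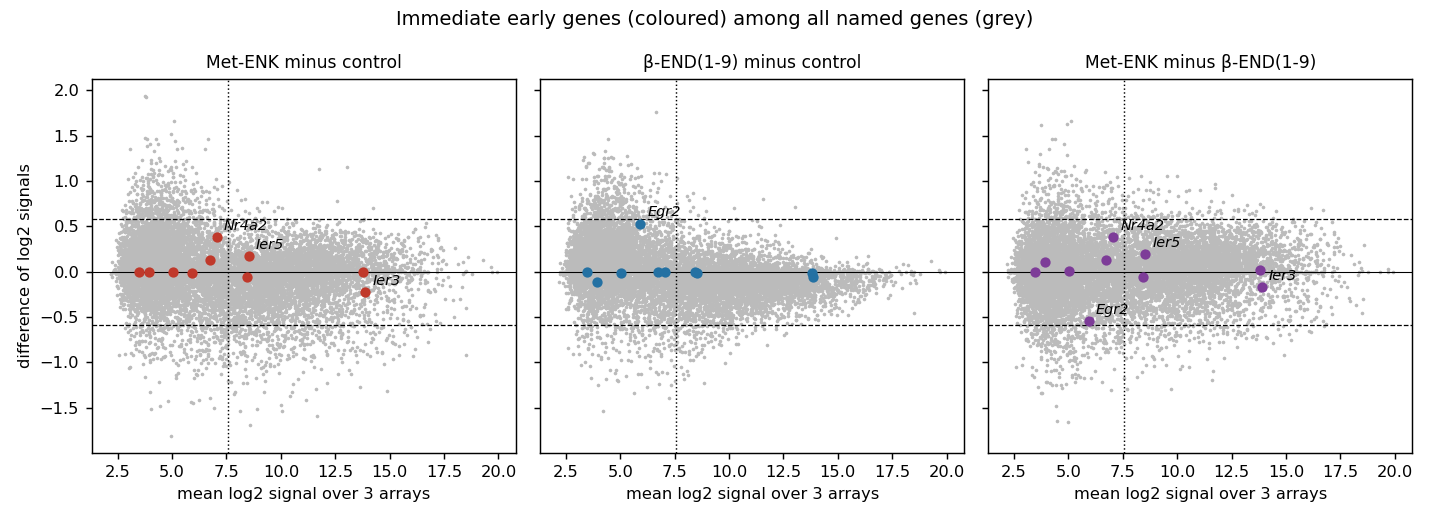
Difference of log2 signals against the mean log2 signal over the 3 arrays for the 10 genes (coloured) and all 15037 named genes (grey). Dashed lines mark 1.5-fold and the dotted line the highest background set (7.57), and members that differ by over 0.15 are named. The coloured points lie within the bulk of the grey ones.

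Differences on the Met-ENK array varied with genomic span among genes that passed the filter. Egr1, Ier2, Ier3, Ier5 and Dusp1 have spans of 1205 to 3800 bases and belong to the shortest quintile of genes that passed the filter. Against control, genes of that quintile had a median of -0.094 on the Met-ENK array and -0.036 on the β-END(1-9) array, whereas the shortest quintile of all named genes had a median of 0 on both. With the trend along span removed, the differences on the Met-ENK array against control were 0.31 for Ier5, 0.26 for Dusp1, 0.13 for Egr1, 0.074 for Ier2 and -0.10 for Ier3. The median over the 6 genes became 0.20, and 0 of them were past 1.5-fold. Before this adjustment Ier2 lay at -0.057 and Egr1 at -0.0003, practically level with control, and after it both lay slightly above control. The part of span in these values was not tested.

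Genes that act before, beside or after the 10 members were described by lists. Among upstream transcription factors and their kinases, 11 of 16 listed genes were measured and 0 were past 1.5-fold in any comparison. Srf itself, the factor of the CArG boxes shown above, had 11.37 with Met-ENK, 11.25 with β-END(1-9) and 11.77 in control. Both peptide arrays were lower, at -0.40 with Met-ENK and -0.52 with β-END(1-9), and stayed lower under the 4 other scalings (-0.43 to -0.32 and -0.56 to -0.43). Both differences use the same control array and are not independent. Lower was also the more frequent direction among the 7519 genes that passed the filter. With Met-ENK 3436 of these were lower and 2457 higher, and with β-END(1-9) 4220 and 1412. Past 1.3-fold in either direction were 16.5% and 10.2% of them. Of the genes for ETS-domain partners of Srf, Elk1 had 9.51 with Met-ENK, 9.25 with β-END(1-9) and 9.31 in control. In the same order, Elk3 had 13.70, 13.415 and 13.75, and Elk4 had 10.14, 10.09 and 10.14. Creb1, the factor of the CRE, had 11.14, 11.02 and 11.14 in that order. The median difference from control over the list was 0 for Met-ENK and -0.047 for β-END(1-9).

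Of 11 listed kinases of the MAP kinase pathways, 7 were measured, and all 7 passed the filter. Mapk8, which encodes the kinase JNK1, had 8.70 with Met-ENK, 7.91 with β-END(1-9) and 8.70 in control, so the β-END(1-9) array was the low one, by -0.79 against control. Mapk9, which encodes JNK2, had 10.33 with Met-ENK, 10.48 with β-END(1-9) and 10.94 in control. It was past 1.5-fold with Met-ENK (-0.61) and short of it with β-END(1-9) (-0.46). After quantile normalization the Mapk9 difference with Met-ENK was -0.55 and no longer past the limit. Against control, 1 of 7 kinases was thus past 1.5-fold with either peptide, beside 6.72% (Met-ENK) and 2.83% (β-END(1-9)) of genes that passed the filter. Of those genes past the limit, 453 of 505 and 171 of 213 were lower. A single gene of 7, in the usual direction, is not a result about the list. JNK1 and JNK2 are substrates of the Dusp1 phosphatase.

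Among co-regulators of the Egr and NR4A factors, 7 of 11 were measured and 0 were past 1.5-fold as deposited. With Met-ENK 4 were higher than control, 1 lower and 2 equal, with a median of 0.23, and with β-END(1-9) the median was 0. Nab2, a corepressor that binds Egr1 and is itself known as an Egr1 target, had 8.05 with Met-ENK, 7.70 with β-END(1-9) and 7.505 in control. The Met-ENK array was 0.55 higher than control, short of 1.5-fold, and 0.65 higher with the span trend removed or 0.64 after quantile normalization, both past it. The control signal of Nab2 lay inside the background range. The related corepressor Nab1, at 10.68, and Rxra, at 11.98, the retinoid receptor that pairs with Nr4a1 and Nr4a2, each had the same value on all 3 arrays.

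Egr4, the fourth member of its family, was measured among 13 of 14 other relatives. It had 5.35 with Met-ENK, 4.45 with β-END(1-9) and 4.72 in control, all inside the background range. Its difference from control with Met-ENK, 0.62, was the 1 past 1.5-fold in this list against control, and after quantile normalization it was 0.55. This is 1 of 13 genes, beside 7.19% of all named genes, and is not a result about the list. Egr4 did not pass the filter, and of the 576 such genes past 1.5-fold in that comparison 396 were higher. The other phosphatase genes included Dusp6, an ERK phosphatase, at 13.81 with Met-ENK, 13.78 with β-END(1-9) and 14.06 in control, and Dusp16, a JNK phosphatase, at 9.00, 8.55 and 8.49.

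Of 48 other immediate early genes, 46 were measured and 39 passed the filter. In Met-ENK against control 14 were higher, 22 lower and 10 equal, and 3 were past 1.5-fold, all lower. These were Id2 (-0.90) and Id1 (-0.66), inhibitors of bHLH factors, and Cebpb (-0.72), which did not pass the filter. Id1 was short of 1.5-fold with the span trend removed (-0.53). Of all named genes, 1081 were past 1.5-fold in this comparison, 448 higher and 633 lower, and of the 505 of them that passed the filter 453 were lower, so neither the count of 3 nor its direction is a result about the list. In β-END(1-9) against control 6 were higher, 32 lower and 8 equal, with a median of -0.081. The median was 0 over all named genes, of which 5934 of 15037 were lower, and -0.030 over those that passed the filter, of which 4220 of 7519 were lower. The list median was -0.041 after quantile normalization, -0.040 after cyclic loess and -0.043 with the span trend removed. Past 1.5-fold were Fos (0.80), of the AP-1 factor, and, on the lower side, the small GTPase gene Rhob (-0.63) and Klf4 (-0.59), a factor of the epidermal barrier. These are 3 of 46 genes, beside 4.61% of all named genes, so the count is near the background and is not a result about the list. Rhob and Klf4 were short of 1.5-fold after quantile normalization (-0.52 and -0.50), cyclic loess (-0.56 and -0.54) and removal of the span trend (-0.57 and -0.53).

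Fos and Egr2 both had their highest signal on the β-END(1-9) array, and neither passed the filter. Of the 480 named genes below the filter that were past 1.5-fold against control, 355 were higher on that array and 125 lower. Higher is thus the usual direction at this level and is not a result about Fos or Egr2. Fos had 4.77 with Met-ENK, 5.58 with β-END(1-9) and 4.78 in control, inside the background range on all 3 arrays. Jun, its AP-1 partner, had 11.65 with Met-ENK, 11.29 with β-END(1-9) and 11.65 in control, so for Jun the β-END(1-9) array was the low one.

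Of 16 genes known as targets of Egr1, in part from human and mouse cells, 14 were measured and 10 passed the filter. With Met-ENK 6 were higher than control, 5 lower and 3 equal, with a median of 0, and with β-END(1-9) 4 were higher, 8 lower and 2 equal, with a median of -0.014. Fgf2, a growth factor gene, was the member past 1.5-fold, 0.89 higher with Met-ENK than in control, where it had 5.12, and at 5.17 with β-END(1-9). It lay inside the background range on all 3 arrays and did not pass the filter. This is 1 of 14 genes, beside 7.19% of all named genes, so the count is near the background and is not a result about the list. Of the 576 named genes below the filter that were past 1.5-fold in Met-ENK against control, 396 were higher. The list holds Nr4a1 itself, and Nab2 stands in 2 lists. The upstream growth factor ligands and receptors, 11 of 11 measured, had 0 genes past 1.5-fold in any comparison and medians of 0 against control with either peptide. Hbegf, a ligand of the EGF receptor, had 11.97 with Met-ENK, 11.95 with β-END(1-9) and 11.93 in control.

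Over all lists together, 106 genes other than the 10 members were measured and 89 passed the filter. Among these 89, 3 were past 1.5-fold in Met-ENK against control, 3 in β-END(1-9) against control and 1 between the peptides, beside the background shares of 6.72%, 2.83% and 4.59% given above.

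**Figure D5:**
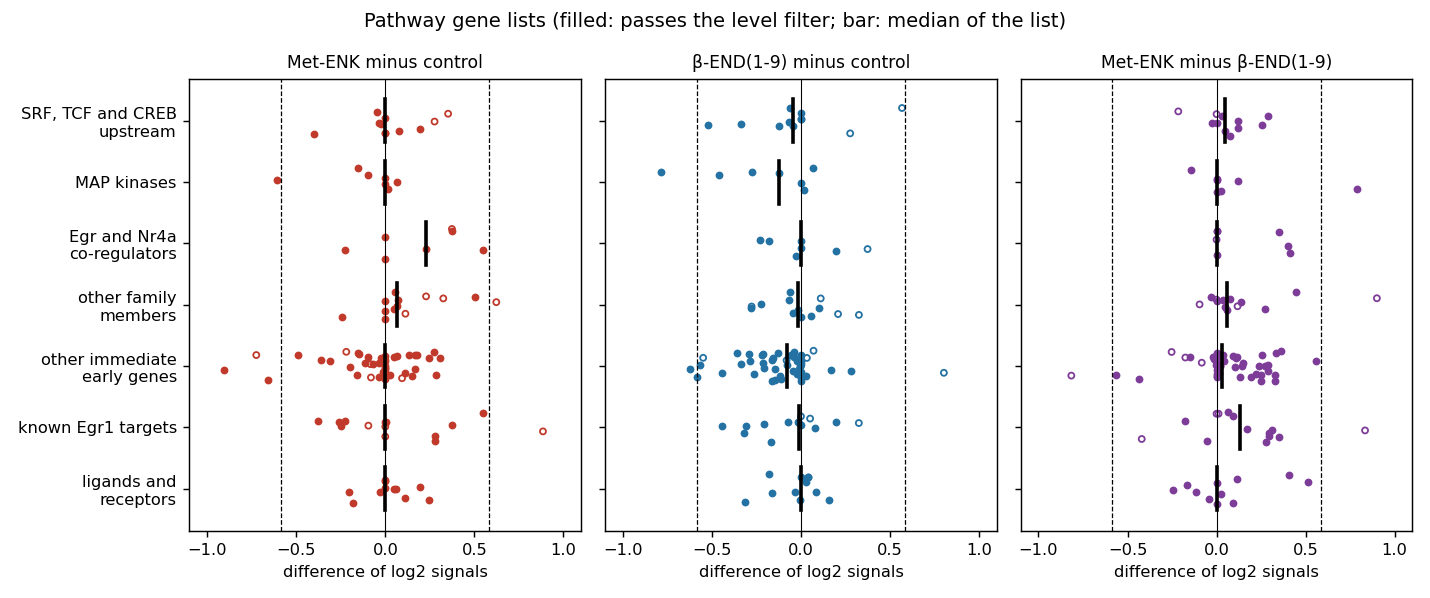
Difference of log2 signals for the genes of 7 pathway lists in the 3 comparisons. Filled points passed the level filter, open ones did not, black bars are list medians and dashed lines mark 1.5-fold. The bar farthest from 0 is that of the co-regulators in Met-ENK against control (0.23).

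A likeness of pattern was measured as the root mean square distance between log2 signals centred over the 3 arrays. Nearest to Nr4a2 were Rprm (distance 0.00069) and Foxo4 (0.0013), and 216 of 7518 genes lay within 0.05. Nearest to Ier3 were Usp20 (0.0029) and Cdk2ap1 (0.0037), with 454 genes within 0.05. For Egr1, whose signal barely differed, the nearest were Npepps (0.00012) and Rnd1 (0.00042), and 2557 genes lay within 0.05. With 3 arrays such a likeness is weak. Dusp1 was nearest to Cep57l1 and Pdap1, Ier5 to Snd1 and Eps8l1, and Ier2 to Col1a1 and Or4z4.

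Over 23188 transcript clusters the median log2 signal was 5.96 with Met-ENK, 5.97 with β-END(1-9) and 5.93 in control. The labelled cell type was checked by markers: 9 of 9 measured genes of basal keratinocytes, Krt14 among them, were above the background range on all arrays, against 2 of 10 fibroblast, 1 of 6 melanocyte, 0 of 8 endothelial and 2 of 9 immune cell markers. Those above it were the fibroblast markers Col1a1 and Col3a1, the melanocyte marker Mitf and the immune markers Cd14 and Cd74, while Ptprc, Cd3e and Pecam1 lay inside it.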

How the data were processed

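Total RNA of 3 FRSK cultures was labelled with a whole-transcript kit and hybridised to 1 array each, per the labels' protocols. The authors deposited a log2 signal for each probe set on each array. RMA, the Transcriptome Analysis Console and the Affymetrix Expression Console appear in the submitters' processing notes, without versions, and no genome build is named there. The deposited columns were used unchanged. Of 24834 probe sets, 23188 were transcript clusters, and 15049 of these had 1 gene symbol in the platform annotation and matched a RefSeq gene of assembly GRCr8, which stand for 15037 genes. For genes with several probe sets the brightest was used.

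Differences of log2 signals were computed between arrays with Python 3.11.15. No replicates exist, so no test was run, and the number of arrays limits the precision. The alternatives were median centring, quantile and cyclic loess normalization (limma 3.58.1), removal of a lowess trend along genomic span, other fold limits and other level filters. The trend was fitted apart in genes that passed the level filter and in those that did not. The counting and the trend removal were tested on simulated data. The members, lists and settings were chosen with earlier results of these data known. Named are all members, key partners and pathway list genes past 1.5-fold as deposited, plus Elk1, Elk3, Elk4, Creb1, Dusp6, Dusp16 and Hbegf, which were chosen after their values were seen.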

Additional observations from a re-analysis of the deposited data

How the results depend on the processing

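The count of members past 1.5-fold stayed at 0 in the 3 comparisons under each of the 4 other scalings, at 2-fold, without a level filter and with a filter at the highest background set. At 1.3-fold it was 1 (Nr4a2) in Met-ENK against control and 1 (Nr4a2) in Met-ENK against β-END(1-9), since the limit itself was lowered. A median or single difference was taken to have moved when it changed by at least 0.1 on the log2 scale or crossed 1.5-fold. The median over members moved once, to 0.20 in Met-ENK against control with the span trend removed. Of 120 values of single members under other scalings 113 stayed within these limits, and of 84 list medians 83 did, the exception being the co-regulators in Met-ENK against control (0.33 after quantile normalization). These counts do not measure robustness. Median centring shifted all genes of a comparison by 1 constant (-0.025, -0.038 or 0.014), which cannot reach 0.1. The limit also exceeded many of the differences themselves, so a change of sign could count as unmoved. After quantile normalization, Ier2 (-0.0025 to 0.094) and Ier5 (-0.017 to 0.081) did so in β-END(1-9) against control. Of 180 values of named pathway genes 19 moved. The largest difference of a member under any scaling was 0.55 in size (Egr2). Whether 6 of the 10 genes were expressed cannot be read from signals inside the background range. No paired analysis was possible because each group has 1 sample.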
